A study of Mus musculus with 15 samples.

Results

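The genes described here are 10 enzymes and cofactors that write, copy or remove repressive marks on DNA and histones in mouse T helper 2 (Th2) cells, the CD4+ T cells that secrete interleukins 4, 5 and 13. They were taken by gene name and are Dnmt1, Dnmt3a, Dnmt3b, Uhrf1, Tet1, Tet2, Tet3, Ezh1, Ezh2 and Suv39h1. All 10 had a row among the 56748 genes of the tables, and all 10 were among the 15619 genes with enough counts to be tested. RNA was sequenced in 15 libraries of Th2 cells grown from naive CD4+ splenocytes of female mice, whose age the labels do not give. Stimulated cKO cells (VEC-Cre;Asb2fl/fl, titled ASB2KO) gave 4 libraries, and non-stimulated cKO cells of the same genotype gave 3. Stimulated control cells (Asb2fl/fl, titled WT) gave 5 libraries, and non-stimulated control cells gave 3.

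Both genotypes carried floxed Asb2 alleles, and cKO cells also carried Cre under the promoter of VE-cadherin, an endothelial gene. Asb2 encodes the substrate-binding subunit of a ubiquitin ligase. All cells spent 3 days on anti-CD3ε (5 µg/ml) with anti-CD28 (1 µg/ml), anti-interferon gamma (10 µg/ml), interleukin 2 (10 ng/ml) and interleukin 4 (40 ng/ml), then moved for 3 days to medium with both interleukins at 20 ng/ml each and no antibodies. The labels date stimulation to day 5, within those 3 days, with coated anti-CD3ε (3 µg/ml) and soluble anti-CD28 (2 µg/ml) for 24 h. Because every group had been activated in the first days of culture, the non-stimulated cells are not naive. They are Th2 cells kept in interleukins 2 and 4 without a second stimulation. Their summed mitosis genes stood above those of stimulated cells, as given below, so they are not described as quiescent.

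DNA methylation is copied after replication by DNMT1, which UHRF1 brings to half-methylated sites, and is laid down anew by DNMT3A and DNMT3B. TET enzymes oxidise the methyl group and so start its removal. EZH1 and EZH2 are alternative catalytic subunits of Polycomb repressive complex 2 (PRC2), which methylates histone H3 at lysine 27, and SUV39H1 methylates histone H3 at lysine 9. In T cells several of the enzymes that write these marks are known for keeping cytokine genes of other lineages silent. EZH2, DNMT1 and UHRF1 are known to be abundant in dividing cells.

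Start-site sequences are shown for 6 members, in the RefSeq windows of build GRCm38.p6 that run from 250 bases before to 50 bases after a start. All 10 members matched by symbol. The first 4 windows are shown because they hold letters of the E2F site, the element bound by the cell-cycle factors that switch on replication genes. The searched letters were TTTCCCGC, TTTGGCGC, TTTCGCGC and TTTGCCGC on both strands, and the capitals mark each match. The windows of Tet1 and Ezh1 are shown because these genes had the largest changes with stimulation among the 10, and neither holds any of those letters.
Dnmt1: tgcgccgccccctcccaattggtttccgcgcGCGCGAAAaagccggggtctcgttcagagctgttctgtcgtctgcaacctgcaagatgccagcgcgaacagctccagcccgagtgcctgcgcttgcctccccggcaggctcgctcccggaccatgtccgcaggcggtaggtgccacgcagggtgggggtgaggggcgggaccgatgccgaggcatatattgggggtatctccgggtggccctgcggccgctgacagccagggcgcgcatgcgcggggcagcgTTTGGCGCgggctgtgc
Uhrf1: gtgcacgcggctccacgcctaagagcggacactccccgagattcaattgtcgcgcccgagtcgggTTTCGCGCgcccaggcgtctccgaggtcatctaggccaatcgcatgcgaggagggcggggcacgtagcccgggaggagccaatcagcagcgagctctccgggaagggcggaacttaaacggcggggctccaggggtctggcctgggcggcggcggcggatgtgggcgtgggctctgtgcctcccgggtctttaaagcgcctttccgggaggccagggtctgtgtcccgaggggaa
Ezh2: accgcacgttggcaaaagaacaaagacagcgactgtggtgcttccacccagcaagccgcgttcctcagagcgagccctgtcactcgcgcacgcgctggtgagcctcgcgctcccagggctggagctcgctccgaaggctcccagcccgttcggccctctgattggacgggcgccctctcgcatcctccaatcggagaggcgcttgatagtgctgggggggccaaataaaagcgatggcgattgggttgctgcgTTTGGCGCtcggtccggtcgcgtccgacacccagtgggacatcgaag
Suv39h1: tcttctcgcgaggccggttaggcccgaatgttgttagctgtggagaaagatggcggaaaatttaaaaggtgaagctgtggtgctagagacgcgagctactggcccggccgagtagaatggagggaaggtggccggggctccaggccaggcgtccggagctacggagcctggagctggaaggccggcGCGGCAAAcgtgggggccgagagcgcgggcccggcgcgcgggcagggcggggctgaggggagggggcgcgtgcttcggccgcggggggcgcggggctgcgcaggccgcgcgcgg
Tet1: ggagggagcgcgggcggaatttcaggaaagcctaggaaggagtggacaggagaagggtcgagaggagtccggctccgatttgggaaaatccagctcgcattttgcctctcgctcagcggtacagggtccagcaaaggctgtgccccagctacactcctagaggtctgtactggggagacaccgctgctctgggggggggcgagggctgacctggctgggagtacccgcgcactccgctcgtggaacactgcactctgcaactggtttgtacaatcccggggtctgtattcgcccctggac
Ezh1: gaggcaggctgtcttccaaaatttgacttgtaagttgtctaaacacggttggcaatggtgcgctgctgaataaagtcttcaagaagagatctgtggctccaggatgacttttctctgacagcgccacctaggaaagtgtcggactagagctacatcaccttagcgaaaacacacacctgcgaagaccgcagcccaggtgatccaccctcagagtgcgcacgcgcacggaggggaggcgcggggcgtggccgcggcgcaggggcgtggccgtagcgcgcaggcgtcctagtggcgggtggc

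On GRCm38.p6 these windows are chr9:20952574-20952873 (minus strand) for Dnmt1, chr17:56304063-56304362 (plus) for Uhrf1, chr6:47594981-47595280 (minus) for Ezh2, chrX:8074312-8074611 (minus) for Suv39h1, chr10:62887275-62887574 (minus) for Tet1 and chr11:101226414-101226713 (minus) for Ezh1. Dnmt1 has 3 windows, each set on another start. The one shown held TTTGGCGC 34 bases after its start and TTTCGCGC on the opposite strand 219 bases before that start. Which start these cells use was not tested. Ezh2 held TTTGGCGC 4 bases after its start, Uhrf1 held TTTCGCGC 185 bases before its start, and Suv39h1 held TTTGCCGC on the opposite strand 64 bases before its start. Such letters were present in 4 of 10 members, against 2.6% of 27025 genes with a window and 4.82% of the 10238 tested genes with one. Dnmt1 and Dnmt3a have 3 windows each and Uhrf1 and Suv39h1 have 2 each in the table, and the remaining windows of these genes held no E2F letters. The letters of the mitotic CHR element (TTTGAA, both strands) were in another Dnmt1 window and in Dnmt3b. They were in 20.2% of genes with a window and 14.9% of tested genes with one. The letters of an AP-1 site (TGANTCA, both strands), the element of factors switched on by T cell receptor signals, were in no member window. They were in 8.97% of genes with a window and 6.15% of tested genes with one. CG pairs numbered 57 in the window of Tet2 and up to 47 in those of Dnmt3a, 31 in Ezh2, 23 in Ezh1 and 17 in Tet1, against a median of 20 over windows of tested genes. A match is a description of letters and does not show that a factor binds there, and the tables give no methylation or binding.

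Library totals were 17.1 to 24.2 M estimated counts. Asb2 itself stood at 9.36 to 9.59 CPM (read counts scaled to library size) in stimulated cKO cells, against 31.2 to 38 CPM in stimulated controls, and at 12.7 to 22.7 CPM in non-stimulated cKO cells, against 25.6 to 49.7 CPM in non-stimulated controls. Cd4 stood at 342 to 481 CPM and the Th2 factor Gata3 at 545 to 827 CPM in all libraries. Other genes of the 9-gene Th2 and CD4 list ranged more widely. Il4 stood at 5.49 to 181, Il5 at 1.54 to 1510, Il13 at 11.2 to 2080 and Cd3e at 188 to 405 CPM. By the edgeR test given below, 3 of the 9 rose and 4 fell with stimulation in each genotype. Of all genes, 53.8% passed it in cKO and 50.6% in control cells. The myeloid gene Lyz2 and the globin genes Hbb-bs and Hba-a1 had 0 counts, while the myeloid gene Adgre1 reached 17.2 CPM. The myeloid list summed to 0.484 to 2.24 CPM in stimulated cKO, 10.6 to 16.9 in non-stimulated cKO, 0.798 to 2.23 in stimulated control and 10.4 to 20.1 CPM in non-stimulated control cells, and its part in the results was not tested. Most of the non-stimulated sum is Adgre1, with means of 11.4 CPM in cKO and 11.9 CPM in control cells. The CD8 T cell list summed to 5.83 to 19.3 CPM in stimulated and 10.6 to 18.4 CPM in non-stimulated cKO cells. It summed to 8.25 to 28.8 CPM in stimulated and 7.39 to 27.8 CPM in non-stimulated control cells, and its part was not tested. The endothelial list summed to 44.7 to 58.2 CPM in stimulated cKO, 165 to 197 in non-stimulated cKO, 44.4 to 77.2 in stimulated control and 172 to 191 CPM in non-stimulated control cells. Nearly all of that sum is Pecam1, while the defining endothelial genes Cdh5, Kdr and Tek had at most 4, 1 and 1 counts in a library. The natural killer cell list summed to 4.81 to 12.1 CPM in stimulated cKO, 7.59 to 12 in non-stimulated cKO, 4.85 to 13.4 in stimulated control and 8.94 to 25.8 CPM in non-stimulated control cells, and the part of either list in the results was not tested. Stimulated cKO replicate 3 stood apart, with 9.43% of its counts on mitochondrial genes against 4.36 to 6.24% in the other libraries, and values that moved most with it are also given without it. Nothing in the labels ties the replicates to separate mice, so p-values reflect the spread among libraries, which may be technical.

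Stimulation was followed by lower RNA of most members that changed. In cKO cells 1 member rose, 5 fell and 4 did not pass the test, and in control cells 1 rose, 6 fell and 3 did not pass (edgeR's quasi-likelihood test, Benjamini-Hochberg adjusted p under 0.05 over all genes tested). Stimulation moved 53.8% of all tested genes past that threshold in cKO cells and 50.6% in control cells, so the share of members called lies near the background. By direction, 4171 genes rose and 4227 fell in cKO cells, and 3961 rose and 3936 fell in control cells. The median log2 fold change of the 10 members was −0.30 in each genotype, against −0.009 over all genes in cKO cells and 0.002 in control cells. The groups did not overlap for 6 of 10 members in cKO cells, against 54.1% of all genes, and for 5 of 10 in control cells, against 47.9%. In bulk RNA, fewer cells that make an RNA and less of it per cell cannot be told apart.

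**Figure D1:**
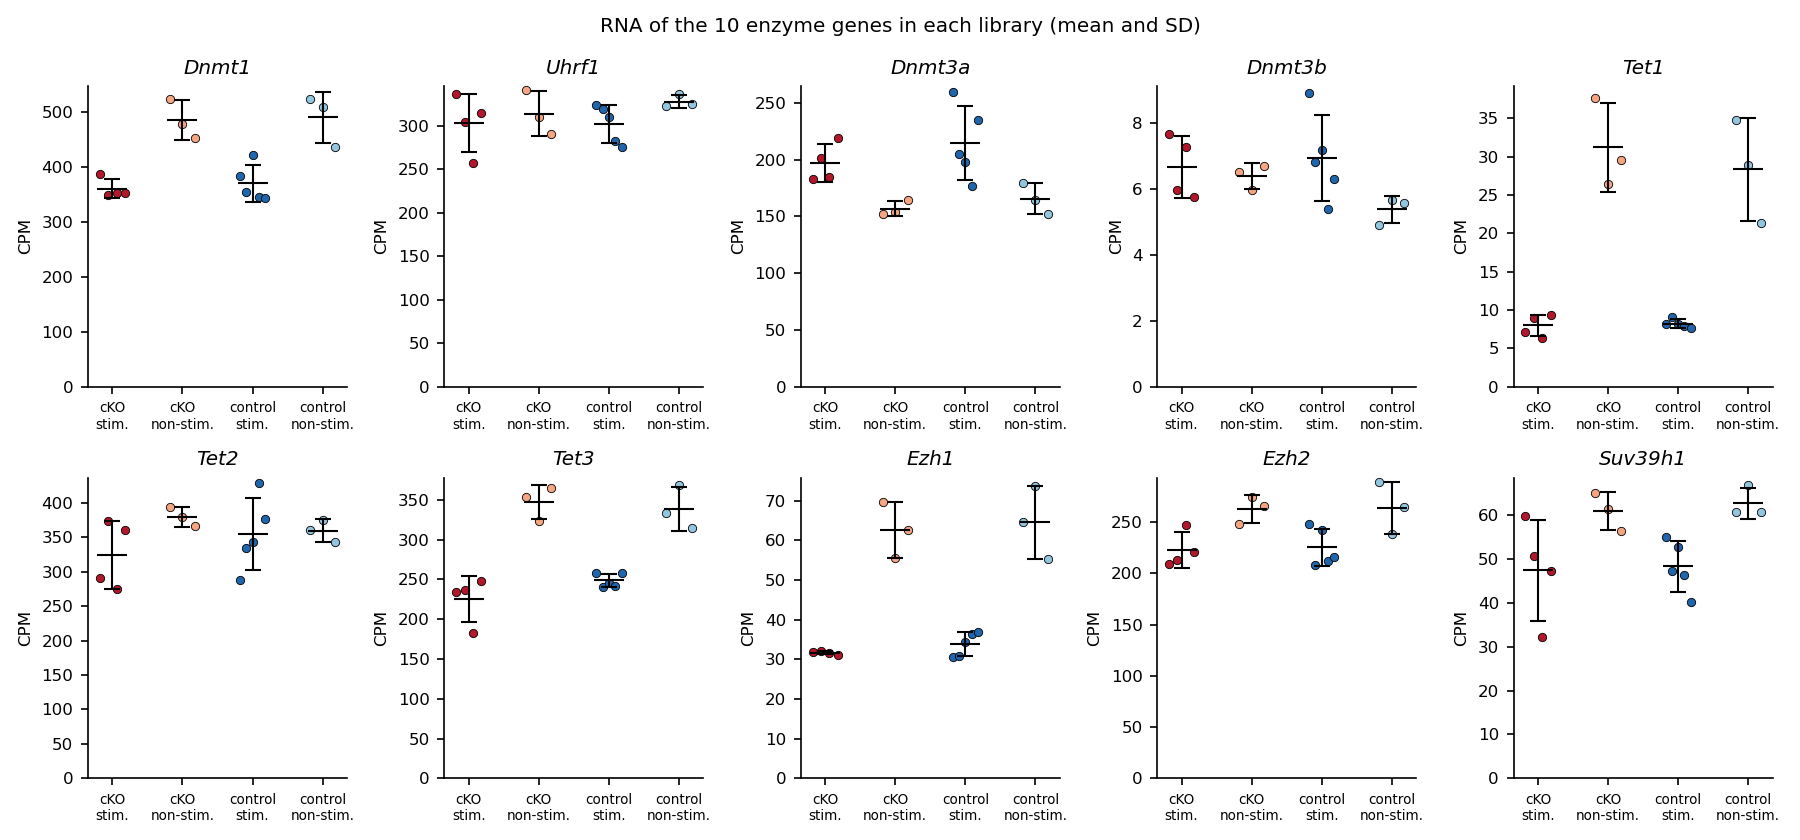
Level of each member in CPM on TMM-scaled library sizes (linear axes from 0), 1 panel per gene and 1 point per library, with lines at the group means. Tet1 and Ezh1 show stimulated libraries below all non-stimulated ones in both genotypes, while Uhrf1 and Tet2 libraries overlap between conditions.

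Dnmt1, the maintenance methyltransferase, was lower in stimulated cells of both genotypes. In cKO cells it had 386.5, 349.5, 352 and 352 CPM when stimulated, against 524, 477 and 453 CPM when not. In control cells it had 384, 354, 422, 345 and 344 CPM when stimulated, against 524, 509.5 and 437 CPM when not. Every stimulated library lay below every non-stimulated one within each genotype. The log2 fold change was −0.43 ± 0.10 (SE; edgeR adjusted p = 0.001008) in cKO cells, which left 74.3% of the non-stimulated level, and −0.41 ± 0.09 (edgeR adjusted p = 0.001106) in control cells, which left 75.5%.

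Uhrf1, the partner that recognises half-methylated DNA, did not follow Dnmt1 past the threshold. It ranged from 258 to 336 CPM in stimulated and 290.3 to 342 CPM in non-stimulated cKO cells, and from 276 to 324 CPM in stimulated and 323 to 336 CPM in non-stimulated control cells. The groups overlapped in both genotypes. Its log2 fold change was −0.05 ± 0.10 in cKO cells (95% interval −0.24 to 0.14; edgeR adjusted p = 0.6929) and −0.12 ± 0.09 in control cells (−0.30 to 0.06; edgeR adjusted p = 0.3062). Without stimulated cKO replicate 3, the lowest library, the cKO value was 0.03 (edgeR adjusted p = 0.813).

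Dnmt3a, the main de novo methyltransferase of T cells, was the member that rose. It measured 183, 201, 185 and 219 CPM in stimulated cKO cells, against 152.5, 154 and 164 CPM in non-stimulated cKO cells. Stimulated control cells had 259, 205, 198, 176.5 and 234.5 CPM, against 179.7, 164 and 152.5 CPM in non-stimulated control cells. The cKO groups did not overlap, while stimulated control replicate 4 fell among the non-stimulated controls. Its log2 fold change was 0.33 ± 0.11 in cKO cells (edgeR adjusted p = 0.02167) and 0.38 ± 0.11 in control cells (edgeR adjusted p = 0.008341). The cKO call was lost without non-stimulated cKO replicate 1 (0.31, edgeR adjusted p = 0.0675), replicate 2 (0.32, 0.0606) or stimulated cKO replicate 4 (0.30, 0.0504).

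Dnmt3b, the other de novo enzyme, was sparse, with 92 to 168 counts per library. It had 7.68, 5.99, 7.27 and 5.75 CPM in stimulated and 6.52, 5.96 and 6.71 CPM in non-stimulated cKO cells. Control cells had 8.94, 6.83, 7.2, 5.41 and 6.3 CPM when stimulated, against 4.92, 5.69 and 5.58 CPM when not. The stimulated and non-stimulated groups overlapped in both genotypes. Stimulation gave a log2 fold change of 0.06 ± 0.17 in cKO cells (95% interval −0.27 to 0.39; edgeR adjusted p = 0.7907; 0.02 without stimulated cKO replicate 3) and 0.36 ± 0.16 in control cells (0.04 to 0.68; edgeR adjusted p = 0.07431). Without stimulated control replicate 4 the control value was 0.44 and passed (edgeR adjusted p = 0.0298).

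Tet1, one of the 3 dioxygenases that oxidise 5-methylcytosine, had the largest change of the 10. In cKO cells it had 7.2, 9.02, 6.42 and 9.36 CPM when stimulated, against 37.7, 26.4 and 29.6 CPM when not. In control cells it had 8.24, 9.16, 8.25, 7.92 and 7.63 CPM when stimulated, against 34.8, 28.9 and 21.4 CPM when not. Even the lowest non-stimulated library stood well above the highest stimulated one. The log2 fold change was −1.96 ± 0.17 in cKO cells (edgeR adjusted p = 4.128e-08) and −1.78 ± 0.16 in control cells (edgeR adjusted p = 5.043e-08), which left 25.7% and 29.1% of the non-stimulated level in cKO and control cells.

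Tet3, a TET enzyme without the CXXC DNA-binding domain in some of its isoforms, fell less. Stimulated cKO cells had 234, 236, 182 and 248 CPM, against 353, 323 and 365 CPM in non-stimulated cKO cells. Stimulated control cells had 258, 241, 245, 242 and 258 CPM, against 333, 369 and 314 CPM in non-stimulated control cells. The groups stood apart in both genotypes. The fitted log2 fold change was −0.62 ± 0.10 in cKO cells (edgeR adjusted p = 3.926e-05) and −0.45 ± 0.09 in control cells (edgeR adjusted p = 0.000658). Without stimulated cKO replicate 3, the lowest library at 182 CPM, the cKO value was −0.53 (edgeR adjusted p = 5.22e-05).

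Tet2, which lacks a CXXC domain and is the most abundant TET gene per length in all 4 groups, did not pass. It ranged from 274 to 373 CPM in stimulated and 366 to 394 CPM in non-stimulated cKO cells, and from 288 to 429 CPM in stimulated and 342 to 375 CPM in non-stimulated control cells. The stimulated groups were the more spread and overlapped the non-stimulated ones. Its log2 fold change was −0.23 ± 0.12 in cKO cells (95% interval −0.47 to 0.02; edgeR adjusted p = 0.1352) and −0.02 ± 0.12 in control cells (−0.25 to 0.21; edgeR adjusted p = 0.9013). The cKO value was −0.15 without stimulated cKO replicate 3 (edgeR adjusted p = 0.343).

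Ezh1, the PRC2 catalytic subunit known for resting cells, had the next largest change. In cKO cells it had 31.8, 32, 31.6 and 31.1 CPM when stimulated, against 69.5, 55.5 and 62.6 CPM when not. In control cells it had 30.5, 30.7, 34.3, 36.2 and 37 CPM when stimulated, against 64.7, 73.6 and 55.3 CPM when not. No library of one condition reached those of the other. It changed by a log2 fold change of −0.98 ± 0.11 in cKO cells (edgeR adjusted p = 6.36e-07) and −0.93 ± 0.10 in control cells (edgeR adjusted p = 5.759e-07), which left 50.6% and 52.3% of the non-stimulated level in cKO and control cells.

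Ezh2, the PRC2 catalytic subunit known for dividing cells, fell by a small margin. Its values were 209, 213, 248 and 221 CPM in stimulated cKO cells, against 248, 275 and 266 CPM in non-stimulated cKO cells. They were 248, 208.5, 242, 212 and 216.5 CPM in stimulated control cells, against 289, 238 and 265 CPM in non-stimulated control cells. The control groups overlapped, and in cKO cells the highest stimulated and lowest non-stimulated libraries nearly touched. The fitted log2 fold change was −0.24 ± 0.09 in cKO cells (edgeR adjusted p = 0.03853) and −0.23 ± 0.09 in control cells (edgeR adjusted p = 0.04146). Without stimulated cKO replicate 3, the highest stimulated cKO library at 248 CPM, the cKO value was −0.29 (edgeR adjusted p = 0.0175). The cKO call was lost, at edgeR adjusted p = 0.0513 to 0.132 and values of −0.23 to −0.20, without any 1 of stimulated cKO replicates 1, 2 and 4, non-stimulated cKO replicates 2 and 3, and stimulated control replicates 2 and 3. The control call was lost, at edgeR adjusted p = 0.0512 to 0.234 and values of −0.23 to −0.15, without any 1 of stimulated cKO replicates 2 and 4, non-stimulated cKO replicate 3, stimulated control replicates 2, 4 and 5, and non-stimulated control replicates 1 and 3.

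Suv39h1, a writer of the heterochromatin mark at lysine 9, passed in control cells. In cKO cells it had 59.8, 50.6, 32.1 and 47.2 CPM when stimulated, against 65, 61.4 and 56.3 CPM when not. In control cells it had 55, 47.3, 52.7, 46.4 and 40.3 CPM when stimulated, against 60.8, 66.8 and 60.6 CPM when not. The control groups stood apart, while stimulated cKO replicate 1 lay among the non-stimulated cKO libraries and replicate 3 lay lowest of all. The log2 fold change was −0.36 ± 0.15 in cKO cells (edgeR adjusted p = 0.05323) and −0.38 ± 0.14 in control cells (edgeR adjusted p = 0.03635). The cKO value was −0.21 (edgeR adjusted p = 0.154) without stimulated cKO replicate 3, and it passed without stimulated cKO replicate 1 (−0.49, 0.00909) or stimulated control replicate 5 (−0.36, 0.0477). The control call was lost, at edgeR adjusted p = 0.0525 to 0.129 and values of −0.40 to −0.32, without any 1 of stimulated cKO replicates 2 and 4, stimulated control replicates 2, 4 and 5, and non-stimulated control replicates 1, 2 and 3.

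**Figure D2:**
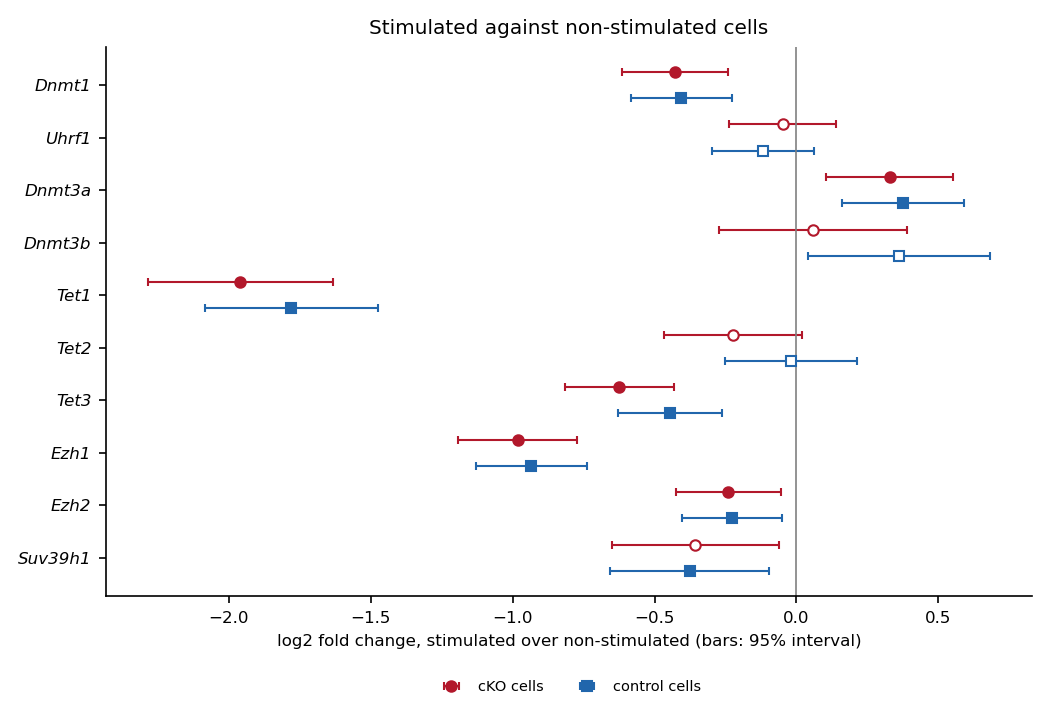
Log2 fold change of each member, stimulated over non-stimulated, with 95% intervals, in cKO cells (circles) and control cells (squares); filled symbols passed edgeR's test at an adjusted p under 0.05. Tet1 (−1.96 in cKO, −1.78 in control) and Ezh1 (−0.98 in cKO, −0.93 in control) lie farthest from 0, and Dnmt3a is the filled symbol above 0 in each genotype.

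The authors' TPM values, tested with limma instead of edgeR, gave other counts. Scale and test changed together, so their parts cannot be told apart. With limma on log2(TPM + 0.1), 4 members fell and 0 rose in cKO cells and 2 fell and 1 rose in control cells. That scale also shifted the median of all genes by −0.09 in cKO and 0.14 in control cells, with 2599 genes higher and 3420 lower in cKO and 3770 higher and 2101 lower in control cells. Tet1 and Ezh1 passed in both genotypes. Relative to the median of all genes on that scale, Dnmt1 stood at −0.42 in cKO and −0.41 in control cells, Tet3 at −0.69 in cKO and −0.41 in control cells, and Dnmt3a at 0.39 in cKO and 0.38 in control cells. Against 0, the calls of Dnmt1 (limma adjusted p = 0.133), Tet3 (0.311), Ezh2 (0.968) and Suv39h1 (0.392) were lost in control cells, and those of Dnmt3a (0.193) and Ezh2 (0.0934) in cKO cells.

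Levels per length set the members in an order that stimulation altered in places. In stimulated cKO cells the mean TPM ran Ezh2 132, Uhrf1 95.4, Dnmt1 69.1, Tet2 59.6, Dnmt3a 48.4, Tet3 25.6, Suv39h1 18, Ezh1 13.6, Dnmt3b 2.02 and Tet1 1.57. In non-stimulated cKO cells it ran Ezh2 160, Uhrf1 110, Dnmt1 97.2, Tet2 73.7, Tet3 42, Dnmt3a 39, Ezh1 24.5, Suv39h1 24.2, Tet1 5.98 and Dnmt3b 2.05. Among neighbours in those orders the libraries overlapped for every pair of stimulated cKO cells except Dnmt3a with Tet3 and Ezh1 with Dnmt3b, and in non-stimulated cKO cells for Uhrf1 with Dnmt1, Tet3 with Dnmt3a and Ezh1 with Suv39h1. Without stimulated cKO replicate 3, Uhrf1 with Dnmt1, Tet3 with Suv39h1 and Suv39h1 with Ezh1 no longer overlapped, and within each of the 4 libraries the first-named gene of these pairs was the higher.

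Control cells had a similar order. When stimulated, the mean TPM was Ezh2 143, Uhrf1 97.1, Dnmt1 73.3, Tet2 67.1, Dnmt3a 53.8, Tet3 29.3, Suv39h1 18.6, Ezh1 14.3, Dnmt3b 2.03 and Tet1 1.54. When not stimulated, it was Ezh2 144, Uhrf1 103, Dnmt1 88.7, Tet2 60.7, Dnmt3a 37.8, Tet3 35.7, Ezh1 25.6, Suv39h1 22.2, Tet1 5.44 and Dnmt3b 1.41. Libraries of neighbours overlapped in stimulated control cells for Dnmt1 with Tet2, Tet2 with Dnmt3a, Suv39h1 with Ezh1 and Dnmt3b with Tet1, and in non-stimulated control cells for Uhrf1 with Dnmt1, Dnmt3a with Tet3 and Ezh1 with Suv39h1. Dnmt3a thus stood above Tet3 with no overlap in the stimulated cells of both genotypes, and the pair overlapped in the non-stimulated cells of both. Tet1 stood above Dnmt3b with no overlap in non-stimulated cells of both genotypes, and its mean was the lowest of the 10 in stimulated cells.

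**Figure D3:**
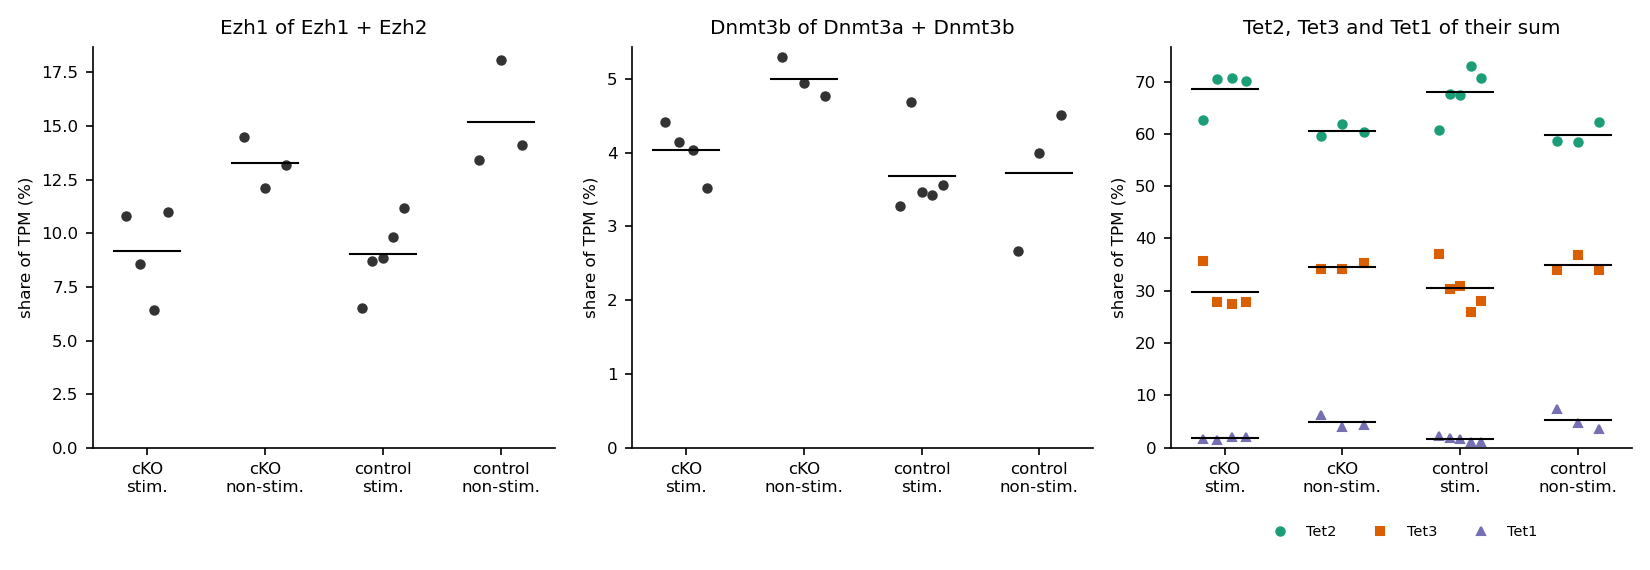
Share of TPM per library within each family, in percent on axes from 0: Ezh1 of Ezh1 plus Ezh2, Dnmt3b of Dnmt3a plus Dnmt3b, and Tet2, Tet3 and Tet1 of the 3 TET genes; each point is a library and lines are group means. Ezh1 averaged 9.19% in stimulated cKO against 13.3% in non-stimulated cKO cells, and 9.03% in stimulated control against 15.2% in non-stimulated control cells.

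Within families, the balance of TPM was compared by two-sided exact permutation tests, with 4 shares in 4 comparisons and 16 tests in all, where no adjusted value fell under 0.229. Ezh1 made up 9.19 ± 2.16% of the Ezh1 and Ezh2 TPM in stimulated cKO cells (SD, n = 4), against 13.3 ± 1.22% in non-stimulated cKO cells (n = 3; exact p = 0.0571, the smallest that 4 against 3 libraries allow). In control cells it made up 9.03 ± 1.71% when stimulated (n = 5), against 15.2 ± 2.53% when not (n = 3; exact p = 0.0357, the smallest that 5 against 3 allow). Neither pair of groups overlapped. Tet2 made up 68.5 ± 3.87% of TET TPM in stimulated cKO cells, against 60.6 ± 1.17% in non-stimulated cKO cells (exact p = 0.0571). It made up 67.9 ± 4.58% in stimulated control cells, against 59.8 ± 2.18% in non-stimulated control cells (exact p = 0.0714). Tet1 made up 1.83% of TET TPM in stimulated cKO against 4.87% in non-stimulated cKO cells, and 1.63% in stimulated control against 5.29% in non-stimulated control cells. Tet3 made up 29.7% in stimulated cKO against 34.5% in non-stimulated cKO cells (exact p = 0.229), and 30.5% in stimulated control against 34.9% in non-stimulated control cells (exact p = 0.143). Dnmt3b made up 4.03 ± 0.379% of the Dnmt3a and Dnmt3b TPM in stimulated cKO cells, against 5 ± 0.271% in non-stimulated cKO cells (exact p = 0.0571). It made up 3.68 ± 0.567% in stimulated control cells, against 3.72 ± 0.946% in non-stimulated control cells (exact p = 1). Between genotypes, the Dnmt3b share was 5% in non-stimulated cKO cells, against 3.72% in non-stimulated control cells, with no overlap (exact p = 0.1, the smallest that 3 against 3 allow). After adjustment, all of these fail the threshold, which tests of 4 against 3 or 3 against 3 libraries could not have passed with any values.

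None of the 10 members was called between cKO and control cells. Asb2 RNA stood at 28.4% of the control level in stimulated cKO cells, where it was called, and at 52.2% in non-stimulated cKO cells, where it was not (edgeR adjusted p = 1). Of all genes tested, 0% were called between non-stimulated cKO and control cells (edgeR, with 402 genes at an unadjusted p under 0.05 and 4 genes called by DESeq2). Between stimulated cKO and control cells 0.0064% were called, which is Asb2, with an edgeR adjusted p of 0.0003369, and DESeq2 called 5 genes. For the interaction, the difference between the stimulation responses of cKO and control cells, 0% were called, with 605 genes at an unadjusted p under 0.05 and 2 called by DESeq2. Of the members, 0 were at an unadjusted p under 0.05 in any of these comparisons by edgeR or DESeq2, and 1 was by limma on log2(TPM + 0.1), Dnmt3b in non-stimulated cells. The adjusted p of every member was 1 in both genotype comparisons and at least 0.997 for the interaction. A p that misses the threshold does not show that the levels are alike.

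In stimulated cells the 95% intervals of the log2 fold change, cKO over control, were −0.34 to 0.26 for Tet1, −0.34 to 0.09 for Tet2 and −0.31 to 0.03 for Tet3. They were −0.20 to 0.13 for Dnmt1, −0.16 to 0.17 for Uhrf1, −0.32 to 0.07 for Dnmt3a and −0.35 to 0.23 for Dnmt3b. Those of Ezh1, Ezh2 and Suv39h1 were −0.28 to 0.09, −0.18 to 0.14 and −0.29 to 0.24. None of the 10 separated stimulated cKO from stimulated control libraries without overlap, against 0.659% of all genes. Without stimulated cKO replicate 3 the estimates were 0.11 for Suv39h1, 0.07 for Uhrf1, 0.04 for Tet1, −0.06 for Tet2 and Tet3 and −0.11 for Dnmt3b, and none was called.

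In non-stimulated cells the intervals were wider, with 3 libraries in each group. They ran from −0.19 to 0.47 for Tet1, −0.18 to 0.34 for Tet2 and −0.17 to 0.24 for Tet3, and from −0.22 to 0.18 for Dnmt1, −0.26 to 0.14 for Uhrf1 and −0.31 to 0.16 for Dnmt3a. Those of Ezh1, Ezh2 and Suv39h1 were −0.27 to 0.18, −0.20 to 0.19 and −0.36 to 0.27. Dnmt3b was the single member whose libraries did not overlap, at 6.52, 5.96 and 6.71 CPM in cKO cells against 4.92, 5.69 and 5.58 CPM in control cells, where 7.86% of all genes did the same. Its log2 fold change was 0.25 ± 0.18 (95% interval −0.11 to 0.60; edgeR adjusted p = 1), from 113 to 148 counts per cKO library and 92 to 129 per control library.

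The interaction, positive where the response is more positive in cKO than in control cells, was estimated at −0.30 for Dnmt3b (95% interval −0.76 to 0.15), −0.21 for Tet2 (−0.54 to 0.13), −0.18 for Tet3 (−0.45 to 0.09) and −0.18 for Tet1 (−0.63 to 0.27). The remaining 6 estimates lay between −0.05 and 0.07. Without stimulated cKO replicate 3 the estimates were −0.34 for Dnmt3b, −0.13 for Tet2, −0.09 for Tet3 and Tet1, 0.14 for Uhrf1 and 0.17 for Suv39h1, and none was called. The genotype and interaction comparisons reuse the libraries of the stimulation comparisons, so they are not independent of them.

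**Figure D4:**
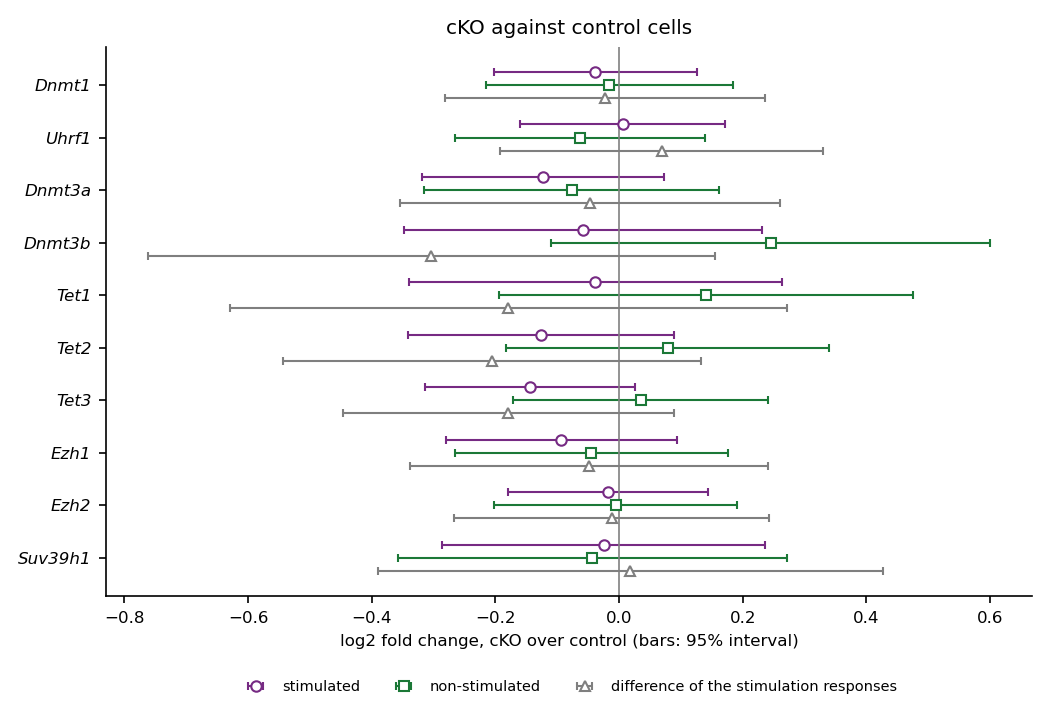
Log2 fold change of each member, cKO over control, with 95% intervals, in stimulated and non-stimulated cells. The difference of the stimulation responses, the interaction, is drawn as well. Every interval includes 0. The widest of the cKO over control intervals is that of Dnmt3b in non-stimulated cells (−0.11 to 0.60). The interaction interval of Dnmt3b is wider (−0.76 to 0.15).

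Other genes of the same pathways were counted from fixed lists. For all tested genes the shares called were 26.7% higher and 27.1% lower in cKO cells, and 25.4% higher and 25.2% lower in control cells. Among 10 other PRC2 subunits, 2 rose and 4 fell with stimulation in cKO cells, and 2 rose and 5 fell in control cells. Eed, the subunit that binds methylated lysine 27, rose to 103 ± 16.2 CPM in stimulated, against 45.7 ± 3.42 CPM in non-stimulated cKO cells (log2 fold change 1.18), and to 97.9 ± 7.29 CPM in stimulated, against 45.4 ± 3.72 CPM in non-stimulated control cells (1.11). The Polycomb-like accessory subunits Phf1 (−1.15 in cKO, −1.05 in control) and Phf19 (−0.53 in cKO, −0.64 in control) fell. Of 19 PRC1 genes, 5 rose and 8 fell in cKO cells and 4 rose and 9 fell in control cells. The chromodomain reader Cbx7 (−0.84 in cKO, −0.71 in control) and the polyhomeotic gene Phc1 (−0.63 in cKO, −0.76 in control) were among those that fell.

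Of 13 genes for methylation of lysine 9 of histone H3 and lysine 20 of histone H4 and for HP1 proteins, 1 rose and 6 fell in cKO cells and 3 rose and 5 fell in control cells. Ehmt2, which encodes the lysine 9 methyltransferase G9a, fell by 0.66 on the log2 scale in cKO and by 0.70 in control cells, and Cbx3, an HP1 gene, fell by 0.36 in cKO and 0.41 in control cells. Suv39h2, the paralogue of Suv39h1, rose to 22.9 ± 1.92 CPM in stimulated, against 10.8 ± 1.13 CPM in non-stimulated cKO cells (log2 fold change 1.08 ± 0.13), and to 19.8 ± 0.768 CPM in stimulated, against 13.1 ± 2.51 CPM in non-stimulated control cells (0.59 ± 0.12). Its interaction was 0.49 ± 0.17 with an unadjusted p of 0.01112 and an edgeR adjusted p of 0.997, which fails the correction. Of 10 demethylases of repressive histone marks, 3 rose and 4 fell in cKO cells and 3 rose and 6 fell in control cells. Kdm6b, the lysine 27 demethylase JMJD3, rose to 189 ± 13.1 CPM in stimulated, against 64.5 ± 10 CPM in non-stimulated cKO cells (log2 fold change 1.55; 1.47 in control cells). Kdm3a, a lysine 9 demethylase, fell by 1.63 on the log2 scale in cKO and by 1.56 in control cells, and the lysine 9 demethylase gene Kdm4c rose by 0.33 in cKO and 0.48 in control cells.

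Among 13 tested partners and readers of DNA methylation, 1 rose and 4 fell in cKO cells and 2 rose and 3 fell in control cells. The remodeller gene Hells rose (log2 fold change 0.47 in cKO, 0.58 in control), while the methyl-CpG reader Mbd1 (−0.72 in cKO, −0.56 in control) and the PCNA-binding factor Pclaf (−0.63 in cKO, −0.64 in control) fell. Among 10 tested partners of DNA demethylation, 4 rose and 1 fell in cKO cells and 5 rose and 2 fell in control cells. Gadd45b, a stress-response gene linked to demethylation, rose to 63.1 ± 15.4 CPM in stimulated, against 6.82 ± 2.4 CPM in non-stimulated cKO cells, and to 57.5 ± 4.01 CPM in stimulated, against 8.82 ± 3.86 CPM in non-stimulated control cells. Gadd45a (log2 fold change 2.75 in cKO, 2.36 in control) and the base excision repair gene Apex1 (0.93 in cKO, 0.81 in control) also rose.

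Genes that supply the methyl donor S-adenosylmethionine had the most one-sided counts of these lists, with 9 of 12 higher and 1 lower in each genotype. Their medians were 0.68 in cKO and 0.56 in control cells. Among all tested genes 26.7% were called higher in cKO and 25.4% in control cells. Mthfd1, an enzyme of folate metabolism, rose by 1.12 in cKO and 1.29 in control cells on the log2 scale, and the methionine salvage gene Mtap rose by 0.92 in cKO and 0.84 in control cells. Mat2b, which encodes the regulatory subunit of methionine adenosyltransferase, fell by 0.67 in cKO and 0.85 in control cells. Of 14 tested histone deacetylases, 4 rose and 6 fell in cKO cells and 3 rose and 6 fell in control cells. On the log2 scale Hdac2 rose by 1.53 in cKO and 1.39 in control cells. Hdac5 fell by 0.86 in cKO and 0.97 in control cells, and the sirtuin gene Sirt7 fell by 0.76 in cKO and 0.65 in control cells. No gene of these 8 lists was called by edgeR between genotypes or for the interaction, and over the 8 lists 1 gene, Suv39h2, had an unadjusted p under 0.05 in any of those comparisons. On log2(TPM + 0.1) with limma, where the median of all genes shifts as above, the methyl donor list had 7 higher and 1 lower in cKO and 9 higher and 1 lower in control cells, while PRC1 had 3 higher and 4 lower in cKO and 4 higher and 1 lower in control cells. With that scale and test the calls of Phc1 in both genotypes, Cbx7 and Cbx3 in control cells and Kdm4c in cKO cells were lost, and no gene named from the lists changed sign. Without stimulated cKO replicate 3, the lysine 9 and lysine 20 list had 3 higher and 7 lower in cKO cells, and the methyl donor list had 10 higher and 1 lower in each genotype.

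**Figure D5:**
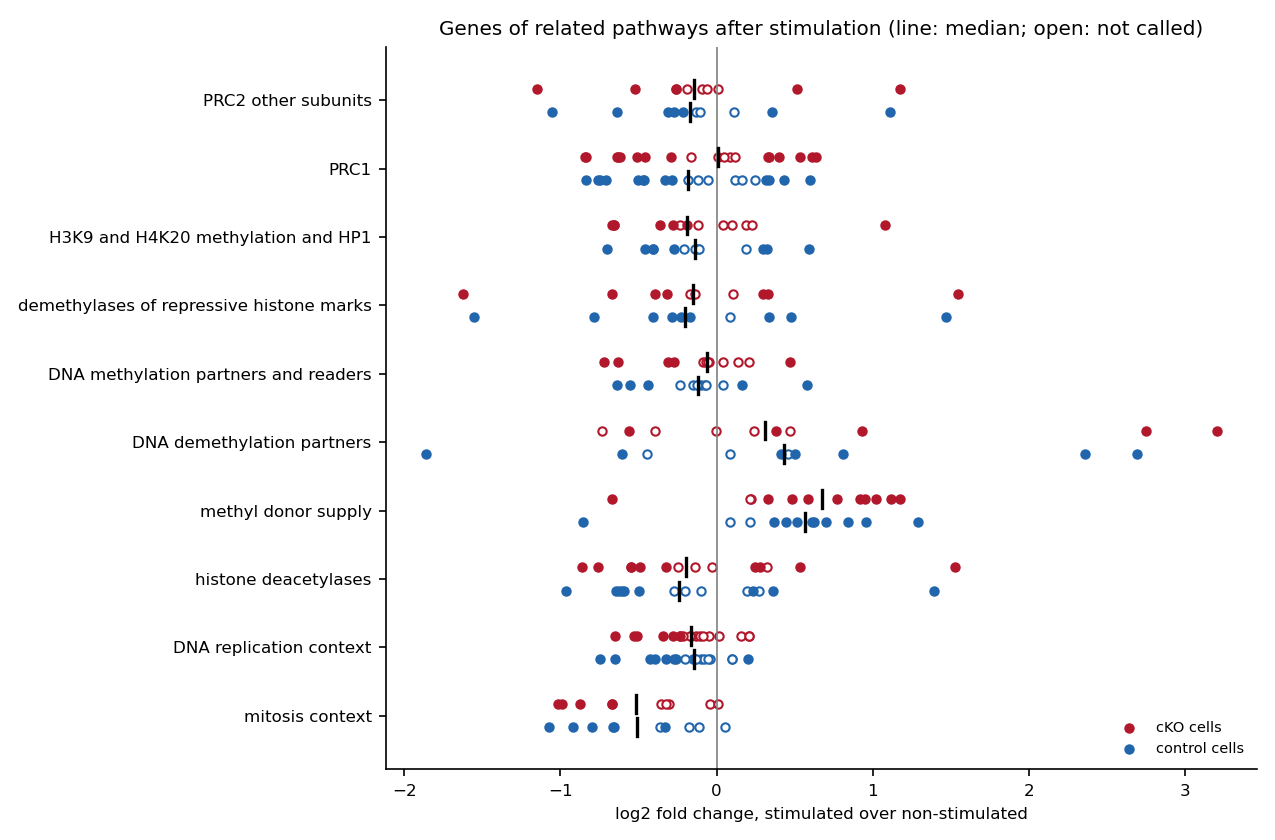
Log2 fold change with stimulation of the genes in each pathway and cell-cycle list, in cKO and control cells. Each point is 1 gene, with the list's median as a line. The methyl donor list lies mostly above 0 (medians 0.68 in cKO, 0.56 in control) and the mitosis list below it (−0.51 in each).

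Cell-cycle lists were counted beside these members. In a list of 10 mitosis genes, 0 rose and 5 fell in cKO cells and 0 rose and 6 fell in control cells, and of 18 replication genes 0 rose and 6 fell in cKO cells and 1 rose and 7 fell in control cells. Of all genes, 27.1% fell in cKO and 25.2% in control cells. The mitosis genes summed to 2470 to 3120 CPM in stimulated, against 4440 to 5070 CPM in non-stimulated cKO cells, and to 2630 to 3300 CPM in stimulated, against 4110 to 5260 CPM in non-stimulated control cells. The replication genes summed to 1980 to 2200 CPM in stimulated, against 2240 to 2620 CPM in non-stimulated cKO cells, and to 1890 to 2180 CPM in stimulated, against 2380 to 2510 CPM in non-stimulated control cells. Their part in the lower Dnmt1, Ezh2 and Suv39h1 of stimulated cells was not tested.

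The genes whose profile over the 15 libraries was nearest to each member were found among 8458 genes with a mean of at least 10 CPM, by the root mean square difference of log2 CPM after centring each gene. For Dnmt1 they were Mprip (0.058), Gimap9 (0.068) and Clspn (0.073), and for Uhrf1 Hnrnpl (0.05), Nacc1 (0.062) and Pigt (0.066). For Dnmt3a they were Jade3 (0.11), Tnpo3 (0.113) and Arid3a (0.113), and for Dnmt3b Aptx (0.115), Tmem120a (0.115) and Klhdc4 (0.128). For Tet1 they were Il17ra (0.179), Slc22a15 (0.192) and Klhl6 (0.194), for Tet2 Nktr (0.058), Zgrf1 (0.082) and Setd5 (0.085), and for Tet3 Zfp512b (0.081), Zc3h4 (0.082) and Plekhm1 (0.089). For Ezh1 they were Dyrk2 (0.101), Inpp5k (0.101) and Mtmr3 (0.102), for Ezh2 Cdk5rap2 (0.068), Ncbp3 (0.076) and Axin1 (0.079), and for Suv39h1 Cdc20 (0.087), Raver1 (0.089) and Fzr1 (0.092). Tet1 had the most distant nearest gene of the 10. It also had the largest spread over the libraries (SD of log2 CPM 0.961, against 0.496 for Ezh1, the next). These distances are not scaled to that spread. Among the members themselves the closest pairs were Dnmt1 with Tet3 (0.15), Dnmt1 with Ezh2 (0.151) and Dnmt1 with Suv39h1 (0.171). All these profiles share the same libraries, and the distances are descriptions without a test.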

How the data were processed

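Stranded total RNA libraries depleted of ribosomal RNA, per the labels' protocols, were sequenced from Th2 cells, 15 in all. The authors deposited an estimated count, not scaled between samples, and a TPM value, scaled within each library, for each of 56748 genes. The submitters' processing notes name cutadapt 3.4, STAR 2.7.9a, Salmon 1.10.1 and GRCm39, without the role of each.

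From the deposited estimated counts, rounded to whole numbers, genes were filtered with filterByExpr of edgeR 4.0.16 (R 4.3.3), which left 15619, with trimmed-mean (TMM) scaling of library sizes. A robust quasi-likelihood model with 1 mean per group was fitted to all 15 libraries, whose biological coefficient of variation was 15.4%. Tests were two-sided with Benjamini-Hochberg adjustment over all genes, with calls made where the adjusted p was under 0.05. The 95% intervals are normal ones from the SE. Shares within families used the deposited TPM values and exact permutation tests (scipy 1.17.1). Correlations of same-numbered libraries, on values centred within each group, ran from −0.205 to 0.177. Differently numbered libraries were not correlated for comparison, so this range cannot decide whether the numbers mark shared animals or cultures. The main model used no pairing. No library pair agreed within sampling noise. The scripts were tested on simulated counts. Alternatives were DESeq2 1.42.0, limma 3.58.1 on log2(TPM + 0.1) and log2(TPM + 1), other scaling, filters, dispersion, samples and blocks, and leaving out each library.

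Promoter windows come from RefSeq (GRCm38.p6), another build than that of the counts, so they were matched by gene symbol. The genes and lists were chosen with earlier results of these data known. Named genes are all 10 members, for each list the 3 genes with the smallest p for stimulation of control cells and any called between genotypes, and the 3 nearest profiles of each member, without clone identifiers. One result that this rule selects is not reported here. An adjusted p near 0.05 rests on few libraries, and intervals cover counting and replicate error between these libraries only.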

Additional observations from a re-analysis of the deposited data

Results flagged for a closer look

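Dnmt1 in stimulated cKO replicate 1 stood at 386.5 CPM, while the other 3 stimulated cKO libraries lay between 349.5 and 352.2 CPM. Its gap to the nearest library took up 0.927 of the range of the group, which is past Dixon's 95% limit for 4 samples. The rule was applied to 20 groups of member values and marked 1, and chance marks about 1 in 20 groups.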

How the results depend on the processing

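Under 25 alternatives, 1220 results for single members were recomputed, of which 1162 kept their side of the threshold, 49 fell short of it and 9 newly passed. No called value reversed, and 76 values that were not called changed sign. Tet1 and Ezh1 were called in all 25 alternatives in both genotypes. Tet1 ran from −2.06 to −1.43 in cKO and −1.95 to −1.29 in control cells, and Ezh1 from −1.06 to −0.86 and −1.03 to −0.82. Ezh2 was called in 12 of 25 in cKO and 11 of 25 in control cells, Suv39h1 in 5 and 12. No member was called between genotypes or for the interaction in any of the 720 results. With limma on log2(TPM + 0.1) and on log2(TPM + 1), 3 members were called for stimulation in control cells. Over all genes, cKO against control in non-stimulated cells gave 4 calls by DESeq2, 3 with log2(TPM + 1) and 1 without a filter, and 0 to 1 when a library was left out (1 without stimulated cKO replicate 3 or non-stimulated control replicate 3). DESeq2 called 5 genes between stimulated genotypes and 2 for the interaction, where log2(TPM + 1) and the block within genotype gave 1 each. The cause of these differences was not tested. With the replicate number as a block, 7 members were called for stimulation in cKO and 6 in control cells, and with the block within genotype 6 in each; Dnmt3b then passed in control cells (0.47 with the number and 0.50 within genotype) and Tet2 in cKO cells with the number (−0.31, edgeR adjusted p = 0.0207). Leaving out a library gave 4 to 7 calls in cKO and 5 to 7 in control cells. Over all genes it gave 7428 to 8506 calls in cKO and 6682 to 8076 in control cells. Over all 25 alternatives, blocks included, 6019 to 8518 genes were called for stimulation in cKO and 5787 to 8076 in control cells. The member counts are therefore no result about the members apart from that background. For the pathway lists, other scalings and leaving out stimulated cKO replicate 3 were chosen after seeing the data. Dnmt3b, at 92 to 168 counts, limits what depth can show.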

Other observations

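The deposited TPM of Ezh1 spread more than its CPM in stimulated cKO cells, with 13.3, 13.3, 8.08 and 19.6 TPM beside 31.8, 32, 31.6 and 31.1 CPM in the same 4 libraries. In stimulated cKO replicate 3 the TPM of Dnmt1, Uhrf1, Tet1, Tet2, Tet3, Ezh1, Suv39h1, Dnmt3a and Dnmt3b was the lowest of the 4 libraries, and that of Ezh2 was not. The CPM of Ezh2 was highest in that library, at 248 CPM, and that of Suv39h1 lowest, at 32.1 CPM. The summed CPM of the 10 members was 1576 in that library, against 1746 to 1809 in the other stimulated cKO libraries and 1756 to 1864 in stimulated control libraries.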
